A study of Homo sapiens with 4 samples.

Results

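Aminoacyl-tRNA synthetases load each tRNA with its amino acid, and amino acid transporters of the SLC families bring those amino acids into the cell or move them across its inner membranes. The genes described here are the cytosolic synthetases and the SLC1A, SLC3A, SLC7A, SLC36A and SLC38A transporters, taken by their gene symbols on the array and not by any measured value. They came to 57 of 18132 genes tested, with 19 synthetases, 7 SLC1A, 2 SLC3A, 13 SLC7A, 4 SLC36A and 12 SLC38A genes. The rule also takes SLC38A12, an older symbol of which is TMEM104.

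The cells were U87MG, an established line of human glioma. One group carried the miR-490 overexpression vector PC-490 and the other its control vector, PCDNA3.1 (+). Both groups were thus transfected with a plasmid, and RNA was taken 48 h later. Each group had 2 PrimeView arrays, made from 100 ng of total RNA each, and the values are log2 signals per probe set. The labels name neither separate cultures for the replicates nor a second line, so the tests measure only the spread between these arrays, which may be technical. Signals of different probe sets depend on their probes, so no comparison of levels between genes is drawn from them; mean signal served only to choose probe sets, to tell dim from bright ones and to pick some of the genes named.

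When amino acids run short, uncharged tRNA activates the kinase GCN2 and the translation of the transcription factor ATF4 goes up. ATF4 in turn raises many synthetases and transporters through DNA elements shared with C/EBP factors. Glioma cells are known for taking up glutamine and for exchanging glutamate for cystine.

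The overexpressed microRNA has 2 mature arms in RefSeq (GRCh38.p14). They are shown because they are the agent that sets the groups apart, with the seed, bases 2 to 8, in capitals. The 3p arm lies at chr7:136903242-136903263 and the 5p arm at chr7:136903205-136903224, both on the plus strand.
hsa-miR-490-3p: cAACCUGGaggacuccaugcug
hsa-miR-490-5p: cCAUGGAUcuccaggugggu
The arms have different seeds. The arrays gave no reading of the microRNA itself, so its level in these cells is not known from these data.

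Array quality touched all results alike. Array medians lay between 5.15 and 5.17, and arrays of one group lay about as far apart across genes as arrays of different groups. The mesenchymal markers VIM, FN1, TNC, CD44 and CHI3L1 were above the median level of all genes, while NES and all 5 glial and neural lineage markers, GFAP among them, were at or below it. Of the 3 neuron markers, SYP and SNAP25 were above that level and RBFOX3 was below it. Of the leukocyte markers, PTPRC, CD3E and CD68 were lower on both miR-490 arrays. Their summed log2 signal was 15.78 and 15.94 in miR-490 cells against 16.34 and 16.38 in control cells, with PTPRC and CD3E dim in both groups. SNAP25 was also lower on both miR-490 arrays, at 8.47 and 8.54 against 8.65 and 8.67. The endothelial marker PECAM1, dim in both groups, was higher on both, at 4.13 and 4.26 against 3.97 and 4.06. The part of these markers in the results below was not tested.

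No synthetase or transporter passed the test, and none of the 18132 genes did. With limma and Benjamini-Hochberg adjustment over all genes, 0 of 57 members had an adjusted p under 0.05, as against 0% of all genes (0 of 18132). No adjusted p was below 0.786. Without adjustment, 6 members had a p under 0.05, or 10.5% of the 57, where the share over all genes was 6.18%. All 6 were lower in miR-490 cells, against a background of 2.88% in that direction, and 0 were higher, against 3.30%. They were the isoleucyl-tRNA synthetase gene IARS1 and the transporters SLC7A11, SLC7A3, SLC36A4, SLC38A6 and SLC38A11. This count was not stable, since it was 3 with the replicate block and between 2 and 7 with any 1 array left out, with 2 without miR-490 replicate 1 and 2 without control replicate 1. For any single gene, 2 arrays against 2 cannot give an exact two-sided permutation p below 0.333. All differences that follow are therefore values, with their standard errors. These are limma's moderated standard errors, which draw each gene's spread toward that of all genes. In bulk RNA, a lower level in every cell and the same level in fewer cells cannot be told apart.

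**Figure D1:**
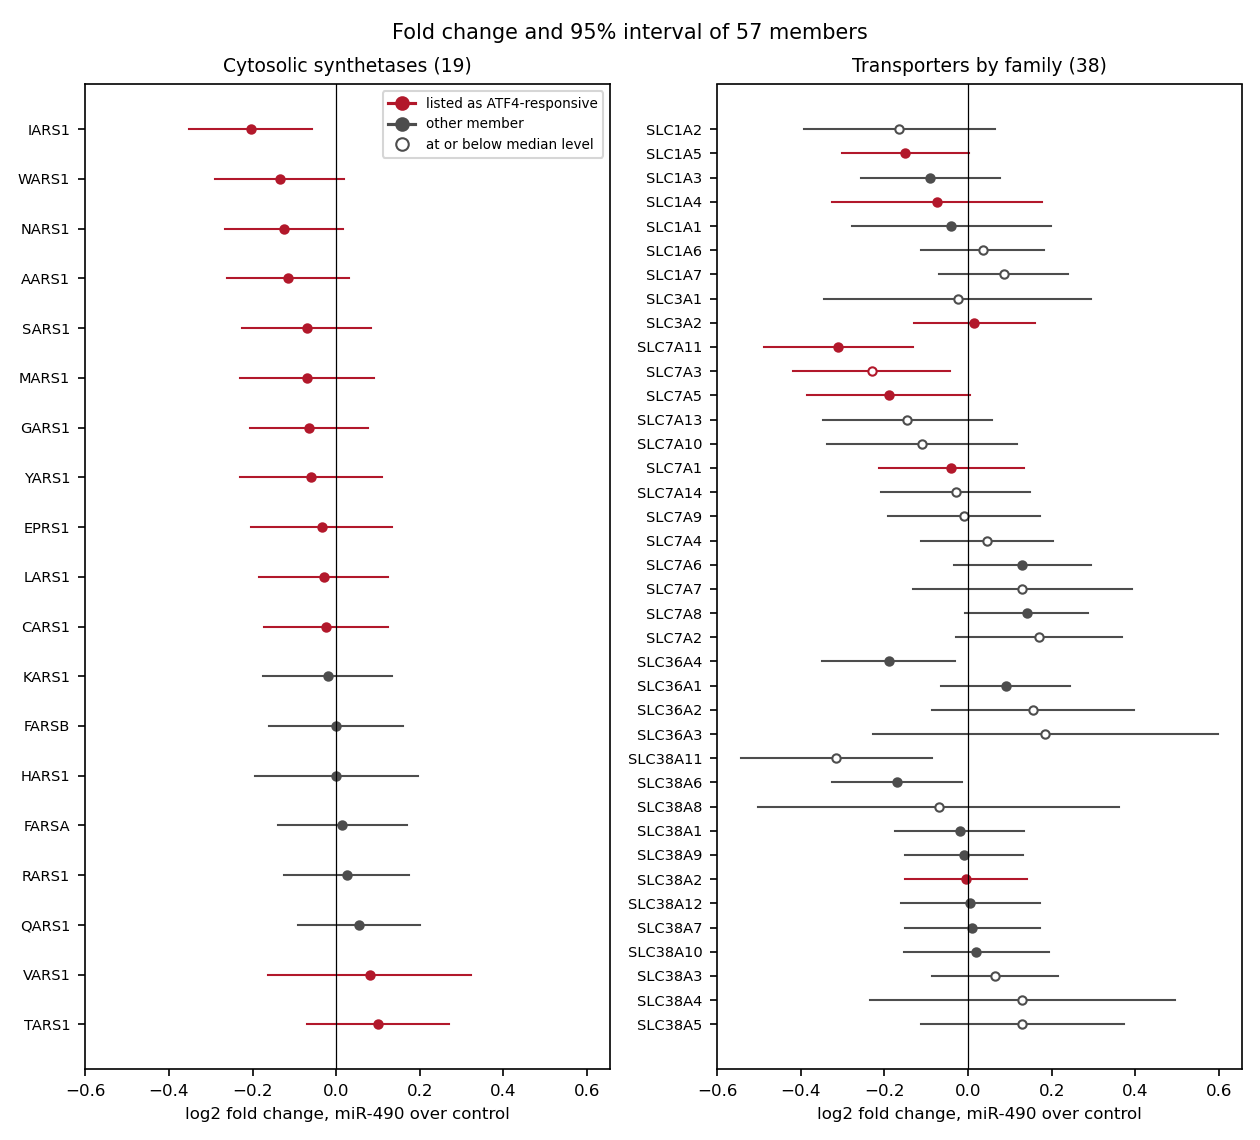
Log2 fold change of miR-490 over control cells (x axis) for the 19 cytosolic synthetases and the 38 transporters, with 95% limma intervals as lines. Red marks members listed as ATF4-responsive, grey the others, and open points genes at or below the median level; IARS1 at -0.205 and SLC7A11 at -0.31 have intervals below 0, and most intervals span 0.

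Among the synthetases, 12 had lower and 5 higher means in miR-490 cells, and 2 had equal means. Their median log2 fold change was -0.03, beside 0.005 over all genes, and their fold changes spanned 0.868 to 1.07. All 19 lay above the median level of all genes. The miR-490 arrays lay below both control arrays in 7 synthetases, 36.8% of them, where the share over all genes was 16.1%. They lay above both in 2, 10.5% of them, where that share was 16.5%. Over all genes above the median level, the shares were 19.2% below and 15.2% above. The 7 were IARS1, NARS1, WARS1, AARS1, GARS1, MARS1 and SARS1.

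IARS1, which charges isoleucine tRNA and lies at chr9:92210207-92293697 (GRCh38.p14), stood furthest from 0. Its log2 signal was 10.87 and 10.92 on the miR-490 arrays, against 11.10 on both control arrays. The groups did not overlap, and the gap between them was wider than either pair's spread. The log2 fold change was -0.205 ± 0.055 (SE, n = 2 each), a fold of 0.868, with a 95% interval of -0.353 to -0.057 and an adjusted p of 0.786 (limma).

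WARS1, the tryptophan enzyme, which interferon also induces, read 9.89 on both miR-490 arrays, against 10.06 and 9.99 in control cells. Its log2 fold change was -0.135 ± 0.058 (SE), with an interval of -0.289 to 0.019. NARS1, for asparagine, was at 10.51 on both miR-490 arrays, against 10.64 and 10.63 on the control arrays, a log2 fold change of -0.125 ± 0.053. In both genes the replicates lay close together and the groups apart, yet the intervals reach past 0.

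AARS1, the alanine enzyme, gave 9.02 and 9.06 in miR-490 cells and 9.16 and 9.15 in control cells, or a fold of 0.923. GARS1, whose gene supplies glycyl-tRNA synthetase to the cytosol and to mitochondria, gave 11.21 and 11.20 against 11.28 and 11.26. These gaps are small, and that of GARS1, at a log2 fold change of -0.065 ± 0.053, was little larger than its moderated standard error. The standard deviations of its own replicates were smaller, at 0.007 in miR-490 and 0.014 in control cells. SARS1, for serine, was at 10.32 and 10.37 in miR-490 cells, against 10.39 and 10.44 in control cells. MARS1, for methionine, was at 9.05 and 9.10, against 9.18 and 9.11. The nearest arrays of the 2 groups were 0.02 apart in SARS1 and 0.01 apart in MARS1, the last digits that the deposited values carry.

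Overlapping groups were found in most of the rest. CARS1 (cysteine), EPRS1, which joins the glutamate and proline enzymes in one chain, LARS1 (leucine, and a leucine sensor upstream of mTORC1) and YARS1 (tyrosine) had log2 fold changes of -0.025, -0.035, -0.03 and -0.06. KARS1, the lysine enzyme of cytosol and mitochondria, was at -0.02. FARSA and FARSB, the 2 chains of the phenylalanine enzyme, were at 0.015 and 0, and HARS1, for histidine, was at 0. RARS1, for arginine, was at 0.025 and VARS1, for valine, at 0.08.

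TARS1 and QARS1 were the synthetases with both miR-490 arrays above both control arrays. TARS1, the threonine enzyme, was at 11.07 and 11.11 in miR-490 cells, against 10.94 and 11.04 in control cells, a log2 fold change of 0.10 ± 0.064 (SE). QARS1, for glutamine, was at 10.13 and 10.12, against 10.09 and 10.05, a log2 fold change of 0.055 ± 0.055. The 2 other probe sets of TARS1 gave -0.025 and -0.04, so its direction depends on the probe set.

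**Figure D2:**
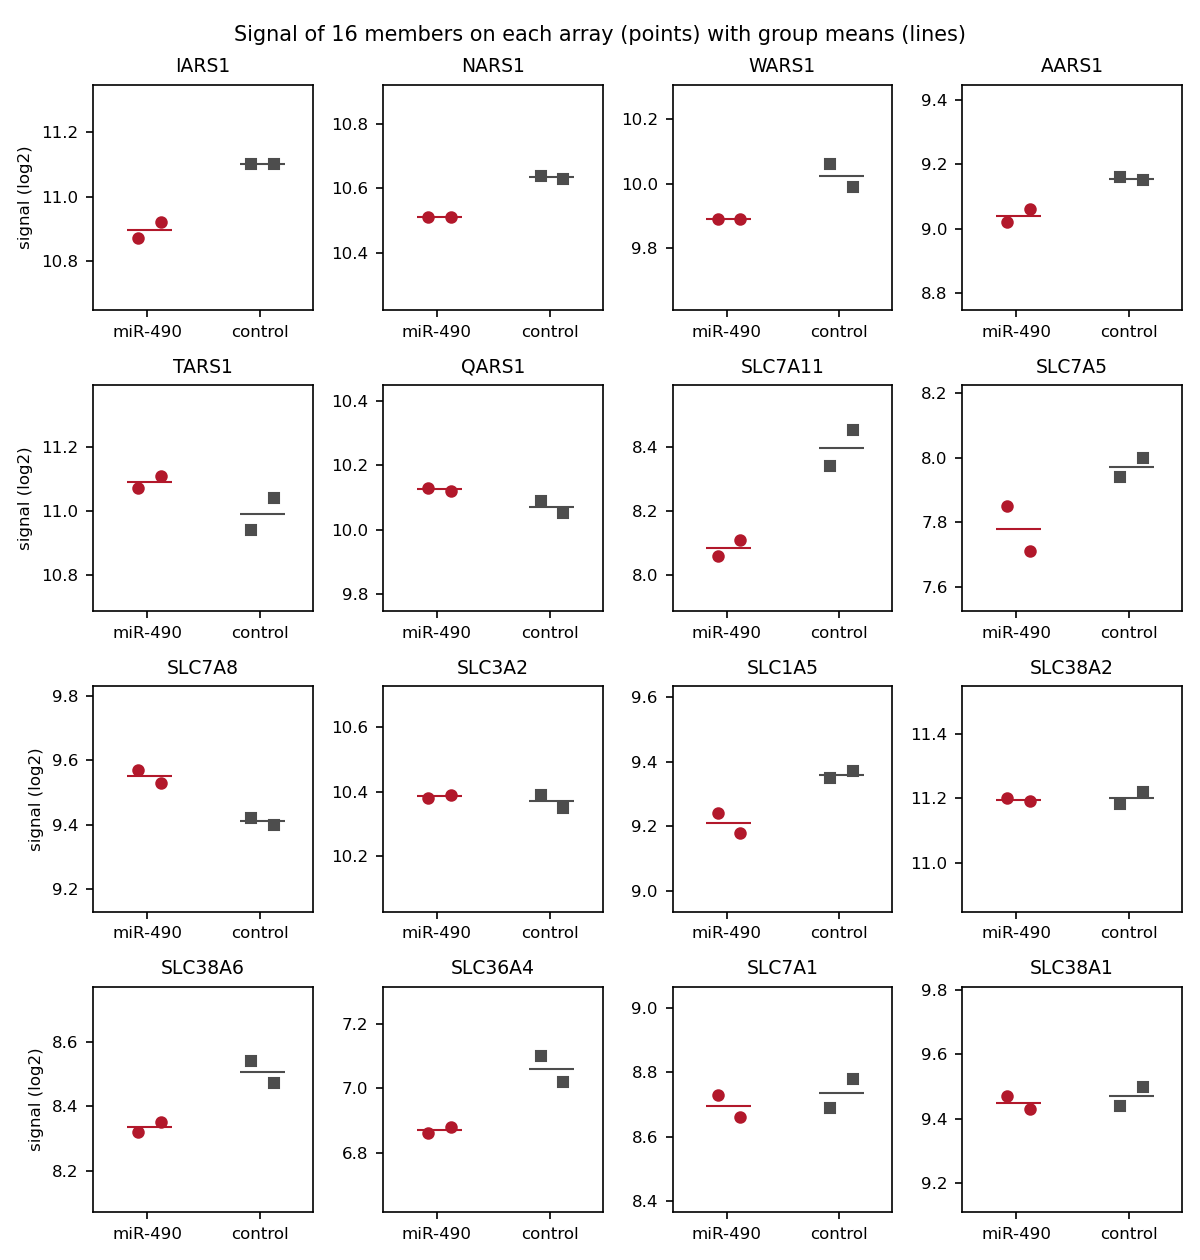
Log2 signal (y axis, the same span in each panel) of 16 members on the 2 miR-490 arrays (red circles) and the 2 control arrays (grey squares), with lines at the group means. IARS1, NARS1, WARS1, AARS1, SLC7A11, SLC7A5, SLC1A5, SLC38A6 and SLC36A4 have both miR-490 arrays below both control arrays, TARS1, QARS1 and SLC7A8 have them above, and SLC3A2, SLC38A2, SLC7A1 and SLC38A1 overlap.

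Some synthetases work free in the cytosol and others sit in the multisynthetase complex, which scaffold proteins hold together. The 7 measured enzymes of the complex had 5 lower and 2 higher means and a median log2 fold change of -0.03. The 12 outside it had 7 lower and 3 higher means and a median of -0.0425. AIMP1, the scaffold protein measured, was at -0.01 ± 0.061 (SE), with 9.18 and 9.14 in miR-490 cells against 9.21 and 9.13 in control cells. By catalytic fold, the 9 class I enzymes had a median of -0.03 and the 9 class II enzymes -0.02. In both groupings the medians lay closer together than the standard error of a single gene.

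The other grouping used was by response to ATF4, from general knowledge of the amino acid and stress responses. Of the 13 synthetases listed as ATF4-responsive, 11 had lower and 2 (TARS1 and VARS1) higher means and the median log2 fold change was -0.065. Both miR-490 arrays were below both control arrays in 7 of them, or 53.8%, and above in 1, beside 16.1% and 16.5% of all genes. For all genes above the median level, as these 13 were, the shares were 19.2% and 15.2%. The 6 others, FARSA, FARSB, HARS1, KARS1, QARS1 and RARS1, had 1 lower and 3 higher means, 2 equal ones and a median of 0.0075, within -0.02 to 0.055, with 0 below both control arrays and 1 above. With each array centred on its median, the medians were -0.075 and -0.0025. These lists and the members were chosen with earlier results of these data known, including that of stress genes, so the split is a description and was given no test.

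Transporters of the SLC1A family carry glutamate (SLC1A1, SLC1A2, SLC1A3, SLC1A6 and SLC1A7) or small neutral amino acids (SLC1A4 and SLC1A5). Of the 7, 5 had lower and 2 higher means and the median log2 fold change was -0.075, but this median was 0.01 without miR-490 replicate 1 and 0 without control replicate 2. SLC1A5, the glutamine carrier of many tumour cells, was at 9.24 and 9.18 in miR-490 cells, against 9.35 and 9.37 in control cells. The groups did not overlap, and the log2 fold change was -0.15 ± 0.057 (SE), a fold of 0.901, with an interval of -0.302 to 0.0016.

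SLC1A3, the glutamate transporter of astrocytes known as GLAST, was at 6.71 and 6.63 in miR-490 cells, against 6.73 and 6.79 in control cells. SLC1A2, the main glutamate transporter of astrocytes in the brain, was at or below the median level, with 5.47 and 5.56 against 5.77 and 5.59. Both had non-overlapping groups with narrow gaps, at log2 fold changes of -0.09 ± 0.062 and -0.165 ± 0.086. Their further probe sets, all at or below the median level, had both signs. They ranged from -0.075 to 0.18 in SLC1A3 and from -0.565 to 0.10 in SLC1A2, so both readings depend on the probe set. SLC1A1, the neuronal glutamate carrier, overlapped between groups at -0.04, and so did SLC1A4, a carrier of alanine, serine and cysteine, at -0.075. The further probe sets of SLC1A4, all at or below the median level, ranged from -0.585 to 0.19, so its reading depends on the probe set. SLC1A6 and SLC1A7, glutamate transporters of Purkinje cells and retina, were dim, at 0.035 and 0.085.

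The SLC3A proteins are single-span heavy chains that bring SLC7A light chains to the plasma membrane. SLC3A2 (CD98), the heavy chain of most light chains, was at 10.38 and 10.39 in miR-490 cells, against 10.39 and 10.35 in control cells. The groups overlapped, with a log2 fold change of 0.015 ± 0.055 (SE) and an interval of -0.13 to 0.16. SLC3A1, the kidney and gut heavy chain, was dim and overlapped as well, at -0.025 ± 0.120.

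Light chains of SLC3A2 lay on both sides of 0. SLC7A11, the cystine-glutamate exchanger xCT, at chr4:138164097-138242349, was at 8.06 and 8.11 in miR-490 cells, against 8.34 and 8.45 in control cells. Both miR-490 arrays were below both control arrays by more than the spread of either pair, and the log2 fold change was -0.31 ± 0.066 (SE, n = 2 each), with an interval of -0.487 to -0.133 and an adjusted p of 0.786 (limma). SLC7A5 (LAT1), which brings in leucine and other large neutral amino acids, was at 7.85 and 7.71, against 7.94 and 8.0, a log2 fold change of -0.19 ± 0.073. The other probe set of SLC7A5, at or below the median level, had the opposite sign, at 0.09. Its paralogue SLC7A8 (LAT2) was at 9.57 and 9.53 in miR-490 cells, against 9.42 and 9.40 in control cells. SLC7A8 thus stood above its controls without overlap, at 0.14 ± 0.055 with an interval of -0.0063 to 0.286. SLC7A6, which exchanges cationic for neutral amino acids, was at 6.25 and 6.16, against 6.06 and 6.09, a log2 fold change of 0.13 ± 0.062. Of the 6 light chains of SLC3A2, 4 were above the median level, and 2 of these had lower and 2 higher means.

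Across the SLC7A family of 13, 8 had lower and 5 higher means and the median log2 fold change was -0.03, but 0.025 without control replicate 2 and -0.085 without control replicate 1. Both miR-490 arrays were below both control arrays in 5, or 38.5%, and above in 3, or 23.1%, beside 16.1% and 16.5% of all genes. Of the 5, SLC7A11 and SLC7A5 were above the median level, while SLC7A3, SLC7A10 and SLC7A13 were dim. Of the 3, SLC7A6 and SLC7A8 were above that level and SLC7A2 was dim. SLC7A1, the cationic amino acid transporter that brings in arginine and lysine, overlapped between groups at 8.73 and 8.66 in miR-490 cells, against 8.69 and 8.78 in control cells. SLC7A3, another cationic transporter, was at 2.48 and 2.61, against 2.80 and 2.75, near the floor of these arrays. SLC7A2, SLC7A4, SLC7A7, SLC7A9, SLC7A10, SLC7A13 and SLC7A14 were likewise at or below the median level, with log2 fold changes of -0.145 to 0.17.

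Of the SLC36A carriers, SLC36A1 moves small amino acids with protons and sits largely on lysosomes. SLC36A1 was at 6.12 and 6.17 in miR-490 cells, against 6.08 and 6.03 in control cells, a log2 fold change of 0.09 ± 0.058 (SE). SLC36A4 was at 6.86 and 6.88, against 7.10 and 7.02, a log2 fold change of -0.19 ± 0.060 with an interval of -0.349 to -0.031. In the probe sets used, the 2 bright members thus pointed in opposite directions without overlap. The other set of SLC36A4, also above the median level, overlapped, with 6.54 and 6.53 against 6.78 and 6.48 (-0.095). Further sets of SLC36A1, all at or below the median level, ranged from -0.185 to 0.14. SLC36A2 and SLC36A3 were dim and overlapped between groups, at 0.155 and 0.185, and the family's median of 0.123 rests on them, since it was -0.05 among genes above the median level.

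SLC38A carriers couple neutral amino acids such as glutamine to sodium or protons. The 12 genes had 6 lower and 6 higher means and a median log2 fold change of 0. SLC38A2 (SNAT2), which amino acid shortage is known to induce, was at 11.20 and 11.19 in miR-490 cells, against 11.18 and 11.22 in control cells. SLC38A1 (SNAT1) was at 9.47 and 9.43, against 9.44 and 9.50. Both sat at the same level in the 2 groups within their spread, with intervals of -0.15 to 0.14 and -0.175 to 0.135.

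SLC38A6 and SLC38A11 were the 2 members of this family with an interval below 0. SLC38A6 was at 8.32 and 8.35 in miR-490 cells, against 8.54 and 8.47 in control cells, a log2 fold change of -0.17 ± 0.059 (SE). SLC38A11 was at 2.82 and 3.02, against 3.22 and 3.25, near the array floor, at -0.315 ± 0.086. SLC38A9, a lysosomal arginine sensor of the mTORC1 pathway, and SLC38A7, a lysosomal glutamine carrier, were at -0.01 and 0.01. SLC38A10 and SLC38A12 were at 0.02 and 0.005, while SLC38A3, SLC38A4, SLC38A5 and SLC38A8 were at or below the median level and lay between -0.07 and 0.13.

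Of the 8 transporters listed as ATF4-responsive, 7 had lower means and 1, SLC3A2, a higher mean, with a median log2 fold change of -0.113. This median was -0.075 among genes above the median level, -0.0725 without control replicate 2 and -0.005 with every probe set counted on its own. They spread more widely than the synthetases, as SLC7A11, SLC7A3 and SLC7A5 were at -0.19 or lower while SLC38A2 and SLC3A2 were within 0.015 of 0. The 30 other transporters had 14 lower and 16 higher means and a median of 0.0075, which was -0.0175 without control replicate 1 and -0.0025 on median-centred arrays. Over synthetases and transporters together, 18 of 21 listed members and 15 of 36 others had lower means, beside 47.3% of all genes. Among all genes above the median level, 50% had lower means. With 1 array left out, 15 to 19 of the 21 had lower means, with 15 without control replicate 2, and 17 did on quantile-normalised values.

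**Figure D3:**
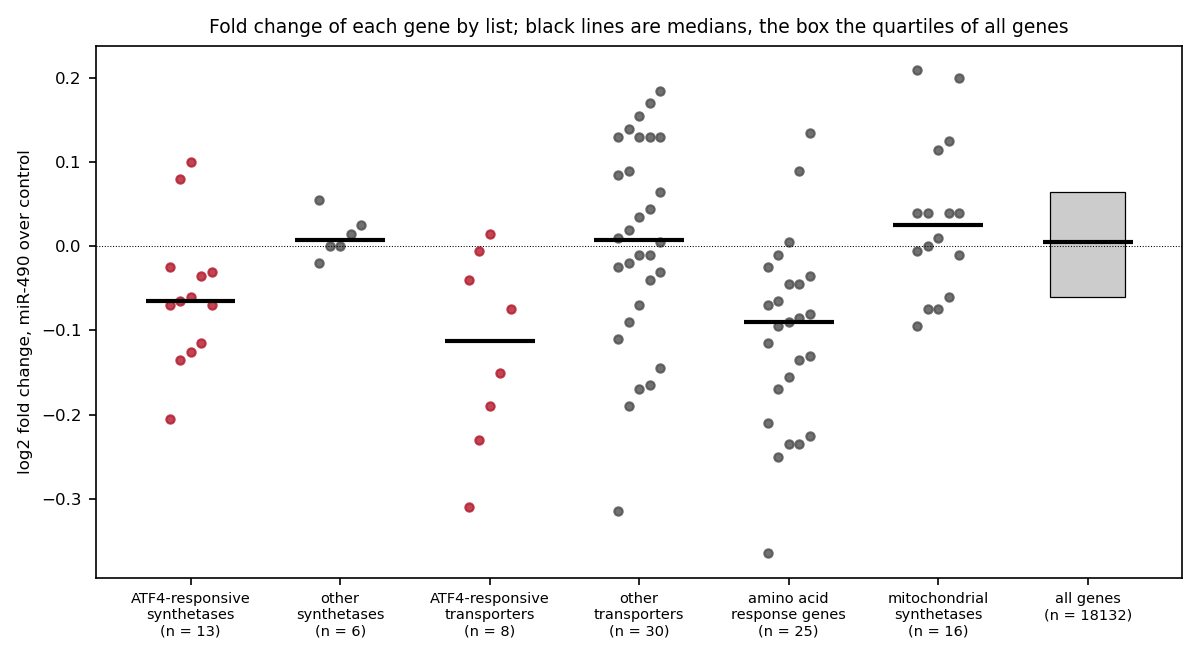
Log2 fold change of miR-490 over control cells (y axis) for each gene of 6 lists, with black lines at the medians and, at the right, a box from the lower to the upper quartile of all 18132 genes. The medians are -0.065 for ATF4-responsive synthetases, 0.0075 for the other synthetases, -0.113 for ATF4-responsive transporters (-0.005 with every probe set counted on its own), 0.0075 for the other transporters, -0.09 for amino acid response genes and 0.025 for mitochondrial synthetases (-0.005 without miR-490 replicate 1), beside 0.005 for all genes.

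Promoters were read for the element through which ATF4 and C/EBP factors are known to act. Most listed members, 18 of 21, had lower means, and 3 had higher ones. A link between the element and these means was not tested. The letters searched were TGATGNAA on both strands of windows from 250 bases before to 50 after a RefSeq start (GRCh38.p14), and several starts of a gene count once. Windows were at hand for 46 of the 57 members; LARS1, VARS1, YARS1, SLC1A2, SLC3A1, SLC7A2, SLC7A3, SLC7A4, SLC7A11, SLC7A13 and SLC38A3 were not in the table. The letters were found in 13 of the 46 genes, or 28.3%, beside 3.62% of the 14425 tested genes that have a window and 3.62% of all 35116 windows of this length. They were in 11 of 16 listed members and in 2 of 30 others. The list holds genes known to be induced through ATF4, so a larger share there was built in and tells nothing about these arrays. The match is a description of the sequence and not of binding.

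The stretches around the matches are shown on the strand of each gene, with the matched letters in capitals, for the synthetases first and then the transporters. Where the match is on the opposite strand, its reverse complement is what stands in capitals. Coordinates are those of the printed stretch.
IARS1, chr9:92293683-92293730, minus strand: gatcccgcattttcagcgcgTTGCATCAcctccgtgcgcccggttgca
NARS1, chr18:57621795-57621842, minus strand: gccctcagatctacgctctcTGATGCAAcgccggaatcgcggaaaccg
AARS1, chr16:70289666-70289713, minus strand: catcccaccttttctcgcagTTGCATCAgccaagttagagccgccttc
MARS1, chr12:57488044-57488091, plus strand: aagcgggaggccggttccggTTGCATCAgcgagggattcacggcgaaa
GARS1, chr7:30594825-30594872, plus strand: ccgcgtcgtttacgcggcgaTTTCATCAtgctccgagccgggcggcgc
CARS1, chr11:3057398-3057445, minus strand: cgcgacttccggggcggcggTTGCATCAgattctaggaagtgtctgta
TARS1, chr5:33440947-33440994, plus strand: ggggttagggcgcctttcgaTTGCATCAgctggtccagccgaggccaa
SLC1A5, chr19:46784884-46784931, minus strand: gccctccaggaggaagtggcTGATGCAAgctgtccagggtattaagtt
SLC1A4, chr2:64989372-64989419, plus strand: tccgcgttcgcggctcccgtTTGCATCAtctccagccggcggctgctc
SLC7A1, chr13:29595654-29595701, minus strand: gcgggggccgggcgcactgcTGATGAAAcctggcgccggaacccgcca
SLC3A2, chr11:62881716-62881748, plus strand: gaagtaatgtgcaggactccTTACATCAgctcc
SLC38A1, chr12:46266493-46266540, minus strand: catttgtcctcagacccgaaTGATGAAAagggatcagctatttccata
SLC1A3, chr5:36596348-36596395, plus strand: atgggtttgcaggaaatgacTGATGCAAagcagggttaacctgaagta
Counting the start as +1 and the base before it as -1, the match begins at -13 in IARS1, -4 in MARS1, -2 in CARS1 and -7 in SLC1A4, and further off, at -187 and -97, in AARS1 and SLC1A5. For genes with several starts, CARS1, SLC1A4 and SLC1A5 among them, the distance is from the start whose window holds the match. The other windows of these genes had no match. Genes with the letters lay on both sides of 0 in expression, with IARS1 at -0.205 and TARS1 at 0.10, and WARS1, SARS1 and SLC7A5, which were lower, had no match in their windows.

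Other probe sets give a second reading of the same arrays, so they check the probes and not the cells. In all, 45 members had 105 further single-gene sets, of which 50 were above the median level. Of these 50, 34 pointed the same way as the set chosen, 10 the other way, and 6 could not be compared because 1 value was 0. For the ATF4-responsive synthetases, 16 of 19 such sets had lower and 2 higher means and the median log2 fold change was -0.06. For the other synthetases 1 of 8 was lower and 7 were higher, with a median of 0.0425.

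The 3 other sets of IARS1 gave -0.12, -0.13 and -0.145, and those of NARS1 -0.055, -0.085 and -0.17. WARS1 had -0.105 and -0.115, GARS1 -0.06 and AARS1 -0.07. These synthetases thus kept their direction in each set above the median level. SLC1A5 did as well, at -0.045 and -0.215.

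Of the further sets above the median level, 2 of SLC7A genes had the sign of the chosen set and 2 did not, and in SLC38A genes 7 did and 2 did not. SLC7A11 had one further set at 7.89 and 7.84 in miR-490 cells, against 7.96 and 8.13 in control cells (-0.18), and one at 6.74 and 6.79, against 6.67 and 6.80 (0.03). SLC7A1 had a further set above the median level at 0.18, opposite to the -0.04 of the set used. The 6 further sets of SLC3A2 shared its sign and lay between 0.05 and 0.07. SLC38A9 had one set at -0.20 and one at 0.01, and SLC38A10 one at -0.18, beside -0.01 and 0.02 for the sets used.

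**Figure D4:**
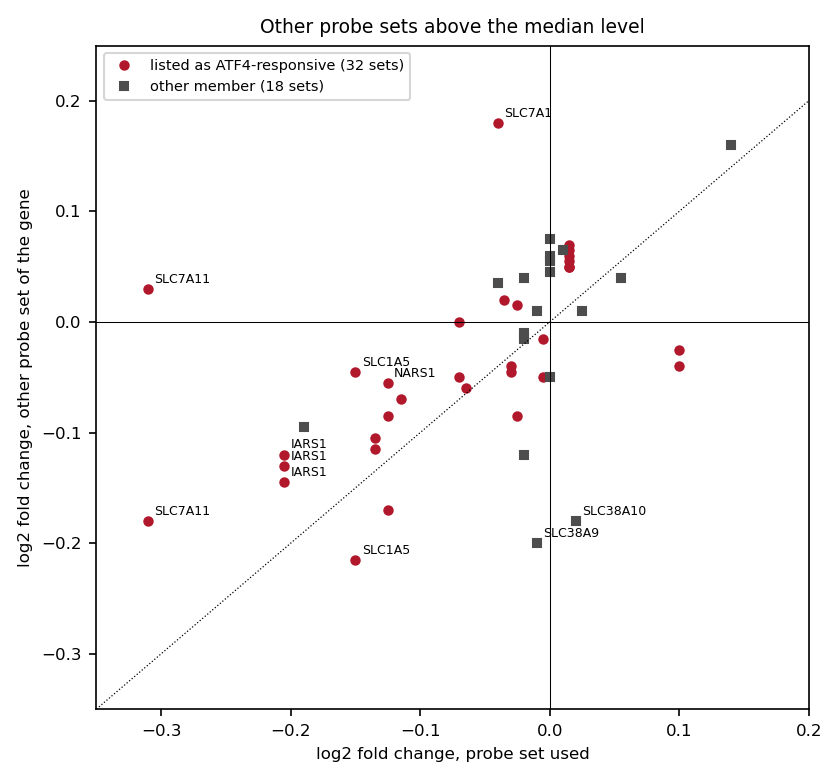
Log2 fold change of miR-490 over control cells for the probe set used (x axis) and for each further set of the same gene above the median level (y axis), with the line of equal values dotted. Of 32 sets of ATF4-responsive members (red circles), 25 share the sign on the x axis and 6 have the reverse, and of 18 sets of other members (grey squares), 9 share it and 4 have the reverse.

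Neighbouring genes of the pathway were read from lists that were chosen with earlier results of these data known. Mitochondrial synthetases, encoded by nuclear genes of their own, had 9 higher and 6 lower means among 16 measured and a median log2 fold change of 0.025. Without miR-490 replicate 1, means were higher in 7 and lower in 9, at a median of -0.005. The median was 0.0025 when control replicate 1 was left out. AARS2 was at 6.14 and 6.10 in miR-490 cells, against 5.84 and 6.00 in control cells (0.20 ± 0.076, SE). SARS2 was at 6.31 on both miR-490 arrays, against 6.18 and 6.19 (0.125 ± 0.053). These 2, named for their small p, stood above their controls without overlap, whereas their cytosolic counterparts AARS1 and SARS1 stood below. Not every pair was so, since VARS2 and VARS1 were both higher, at 0.115 and 0.08. Over the list of 16, 5 stood above without overlap (31.2%, beside 16.5% of all genes) and 2 below (12.5%, beside 16.1%).

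Amino acid response genes had 22 lower and 3 higher means among 25 measured, with a median of -0.09, and 0 passed the test in either direction. Both miR-490 arrays were below both control arrays in 15, or 60%, beside 16.1% of all genes and 19.2% of those above the median level. As the list was chosen with earlier results known, this share is a description and was given no test. PSAT1, of serine synthesis, was at 9.76 and 9.82 in miR-490 cells, against 10.22 and 10.09 in control cells (-0.365 ± 0.071). ASNS, asparagine synthetase, was at 9.69 and 9.64, against 9.95 and 9.88 (-0.25 ± 0.060). ATF4 itself, named here after its values were seen, was at 11.72 and 11.75, against 11.88 and 11.85 (-0.13 ± 0.055). These differences were as large as or larger than those of most synthetases.

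Amino acid transporters of other families had 5 lower and 3 higher means among 9 measured and a median of -0.025. SLC43A2, a carrier of large neutral amino acids, was at 7.11 and 7.21 in miR-490 cells, against 7.33 and 7.25 in control cells (-0.13 ± 0.068). SLC25A22, the mitochondrial glutamate carrier, was at 8.80 and 8.88, against 8.86 and 8.66 (0.08 ± 0.089). In each of the 3 neighbouring lists 0 genes rose and 0 fell by the test over all genes.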

How the data were processed

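Total RNA of U87MG cells was hybridised to PrimeView arrays, 2 per group, and sample titles gave the group and replicate number. The deposited log2 signals came from RMA, according to the submitters' processing notes, and its version is not given in the sources used here. RMA makes array distributions alike, so a shift common to most genes cannot be seen, and it compresses differences of dim genes. Detection calls and scan dates were not used here, and the number of arrays limits the precision.

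Of 49293 probe sets, 44988 carry 1 gene symbol, 1832 carry several and 2473 carry none. Current symbols came from RefSeq for 44961 of them, and the set with the highest mean was used for each of 18132 genes. Above the median level means above 5.84, the median over genes of the mean log2 signal. Groups were compared over all genes with limma 3.58.1 in R 4.3.3 (eBayes without trend or block, on 2 residual plus 2.46 prior degrees of freedom); p-values are two-sided and Benjamini-Hochberg adjusted, with a threshold of 0.05. The fit was tested on simulated data. Figures were drawn with matplotlib 3.10.9.

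Named were 24 fixed members, the 3 with the smallest p of the synthetases and of each family, the brightest 1 or 2 of each, and 2 genes of each neighbouring list; other members stand by role. The members and lists were chosen with earlier results of these data known. Not every gene of these families is reported here. Promoter and microRNA sequences are RefSeq's.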

Additional observations from a re-analysis of the deposited data

How the results depend on the processing

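No alternative run gave a call after adjustment, with 0 genes and 0 members in each. At an unadjusted p under 0.05, the 6 members (10.5%, beside 6.18% of all genes) became 11 (19.3%) with an intensity trend and 11 with a trend and robust prior, 10 of 38 among genes above the median level (641 of 9064 genes), and 13 of 162 sets with every probe set as its own row (2336 of 44988). With the replicate block it was 3, and the block changed no call. The labels do not say that same-numbered arrays were prepared together, and their deviations correlated at -0.0265 across genes. Leaving out each array in turn, with the lone array taken to vary as the remaining pair does, gave 2 to 7 members and 740 to 1284 genes. Quantile normalisation moved the medians (log2) of all synthetases, the ATF4-responsive and the other ones to -0.0131, -0.0488 and 0.0238. Among genes above the median level, SLC36A was at -0.05 and the ATF4-responsive transporters at -0.075. Averaging all probe sets per gene gave -0.0117 for SLC1A, 0.035 for SLC36A and -0.0508 for SLC38A. Every probe set as its own row gave 0.02 for SLC7A, 0.05 for SLC36A, 0.025 for the other synthetases and -0.005 for the ATF4-responsive transporters. With 1 array left out, medians ranged from -0.05 to -0.02 for the synthetases (-0.07 to -0.045 ATF4-responsive, 0.0075 to 0.03 other), -0.12 to 0.01 for SLC1A, -0.085 to 0.025 for SLC7A, 0.025 to 0.0975 for SLC36A, -0.158 to -0.0725 for the ATF4-responsive and -0.0175 to 0.0325 for the other transporters, and -0.005 to 0.035 for mitochondrial synthetases. The alternatives of the lists by ATF4 response were chosen after seeing the data, and the causes were not tested.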
